A study of Mus musculus with 2 samples.

Results

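The 6 sodium-proton exchanger genes Slc9a2, Slc9a3, Slc9a5, Slc9a7, Slc9a8 and Slc9a9 were followed through the cell types of mouse pancreatic tumors. They were taken by symbol from the 19059 genes of the deposited matrix, and all 6 were found. The tumors were KPC tumors, a mouse pancreatic cancer model, grown orthotopically in the pancreas. One sample came from tumors given DMSO, the vehicle, and the other from tumors given EIPA at 10 mg/kg, with 4 tumors pooled into each sample and 1 sample per treatment. RNA was read in fixed single cells with gene-specific probes, and each count is a unique molecular identifier (UMI). The deposited matrix separates 2 libraries by the number that closes each cell barcode, and nothing in the labels says which library had which treatment. Every value is therefore given for library 1 and library 2, and no difference between them can be read as an effect of EIPA. The age of the mice, the host strain and the tumor line were not given in the sources used here.

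Sodium-proton exchangers swap a sodium ion for a proton across a membrane. Those at the cell surface let sodium in and acid out, which sets the pH under the plasma membrane, and those of endosomes and the Golgi set the pH inside these organelles. EIPA, an amiloride derivative, blocks surface exchangers and is used to stop macropinocytosis, the uptake of fluid in large vesicles, a route by which pancreatic cancer cells take in protein. Slc9a2 and Slc9a3 encode NHE2 and NHE3, surface exchangers best known from intestinal and renal epithelium. Slc9a5 encodes NHE5, known mainly from neurons, where it moves between the surface and recycling endosomes. Slc9a7, Slc9a8 and Slc9a9 encode NHE7, NHE8 and NHE9, exchangers of the trans-Golgi network, the Golgi and the endosomes.

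The genes lie apart in the genome (GRCm38, GENCODE M21). Slc9a2 spans chr1:40680574-40769273 and Slc9a3 spans chr13:74121457-74169442, both on the plus strand. Slc9a5 lies at chr8:105348843-105369881, Slc9a7 on the minus strand at chrX:20105754-20291807, Slc9a8 at chr2:167421712-167477000 and Slc9a9 at chr9:94669909-95230445. The 250 bases before the annotated start are shown for Slc9a9 and Slc9a7, the members with the most uneven levels over the cell types, and for Slc9a8, whose levels were close to even. They are RefSeq windows of GRCm38.p6, at chr9:94669642-94669891 (plus strand), chrX:20291828-20292077 (minus strand) and chr2:167421460-167421709 (plus strand), written 5′ to 3′ with every CG pair in capitals.
Slc9a9: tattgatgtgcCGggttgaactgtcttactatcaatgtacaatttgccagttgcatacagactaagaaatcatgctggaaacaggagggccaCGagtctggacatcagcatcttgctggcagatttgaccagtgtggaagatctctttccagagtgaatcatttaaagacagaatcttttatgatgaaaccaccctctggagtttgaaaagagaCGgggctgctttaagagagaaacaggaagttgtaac
Slc9a7: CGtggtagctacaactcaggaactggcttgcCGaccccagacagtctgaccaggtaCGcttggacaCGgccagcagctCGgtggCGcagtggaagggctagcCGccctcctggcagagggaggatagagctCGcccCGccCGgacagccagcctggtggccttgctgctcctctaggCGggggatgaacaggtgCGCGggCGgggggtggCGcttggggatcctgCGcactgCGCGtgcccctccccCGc
Slc9a8: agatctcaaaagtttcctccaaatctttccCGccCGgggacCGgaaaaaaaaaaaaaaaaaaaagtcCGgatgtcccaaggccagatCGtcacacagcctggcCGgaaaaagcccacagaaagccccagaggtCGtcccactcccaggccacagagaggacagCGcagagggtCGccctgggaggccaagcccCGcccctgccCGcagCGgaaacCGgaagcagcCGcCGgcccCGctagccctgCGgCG
The Slc9a9 window holds 3 CG pairs and a GC content of 42.8%, which is lower than all but 17.9% of 32841 promoter windows. The Slc9a7 window holds 19 CG pairs at 69.6% GC, and the Slc9a8 window holds 18 at 62.0%. The windows of Slc9a3 and Slc9a5 hold 19 and 18. For these genes no GENCODE transcript held the bases checked after the RefSeq start. The Slc9a5 window ends at base 105348257, before the gene start at 105348843. The ratio of observed to expected CG pairs was 0.269 for Slc9a9, against 0.630 for Slc9a7, 0.688 for Slc9a3, 0.763 for Slc9a8 and 0.80 for Slc9a5, with a median of 0.374 over all windows. A search on both strands for GAGGAAGT, letters bound by the myeloid factor PU.1, found none in these 5 windows, and 2.44% of all windows hold it. The letters TGATGNAA of the ATF4 and C/EBP element were found in Slc9a9 alone, and 3.45% of all windows hold them. These are letters in a window and not measured sites.

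The libraries held 12337 and 11945 cells with 203459556 and 185474400 UMIs, and 11115 and 10785 cells were kept. Clusters were named from marker genes. Tumor cells (4995 and 3478 cells) carried epithelial markers, 12 of 13 at 20 CPM or more, where CPM is a gene's UMIs scaled to 1e+06 UMIs of the group. Unnamed cells (4349 and 5132) are clusters that did not meet the rules for a name, with 10 of the 13 epithelial markers at that level in both libraries. Macrophages or monocytes (807 and 771), T cells (120 and 331), neutrophils (143 and 162), fibroblasts (367 and 456) and blood endothelial cells (161 and 132) made up the 5 lineages compared, while dendritic cells (80 and 244), pericytes (63 and 56) and lymphatic endothelial cells (14 and 12) fell under 100 cells in a library and are described only. Epithelial markers were read in every lineage, where the median of the 13 epithelial markers stood at 13.2% to 36.6% of its tumor-cell level. The libraries share 225 barcode sequences. Intervals are exact 95% Poisson intervals on summed UMIs, which cover counting error only. With 1 sample per treatment no test between samples can be made. Probe counts do not scale with transcript length, so levels are compared within a gene and not between genes.

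**Figure D1:**
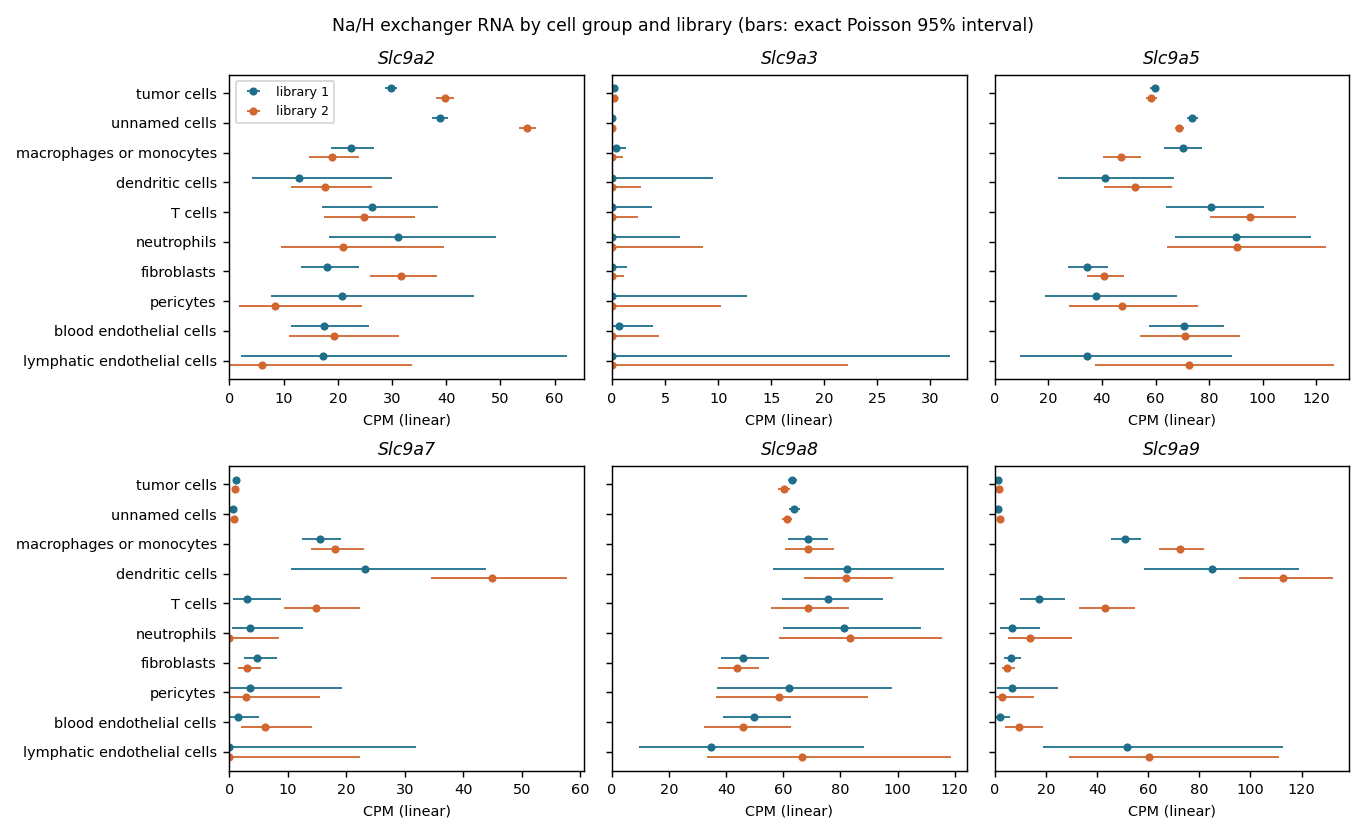
Each panel plots 1 gene, with CPM on a linear axis from 0 (the scale differs between panels), the cell groups in rows, and points for library 1 and library 2 with exact Poisson 95% intervals. Slc9a9 and Slc9a7 stand high in macrophages or monocytes and dendritic cells and near 0 in tumor cells, Slc9a5 and Slc9a8 stand above 30 CPM in all groups shown, and Slc9a3 has almost no UMIs.

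Slc9a9 and Slc9a7, the exchangers of endosomes and the trans-Golgi network, stood far higher in macrophages and dendritic cells than in tumor cells. Slc9a9 stood at 51.0 CPM in macrophages or monocytes of library 1 (284 UMIs, 45.3 to 57.3) and 72.6 CPM in library 2 (265 UMIs, 64.1 to 81.9), against 1.46 and 1.61 CPM in tumor cells. Macrophages were thus 34.8-fold (28.2 to 43.3) and 45.0-fold (35.3 to 57.8) above tumor cells, and their intervals did not overlap those of any other compared group. A UMI of Slc9a9 was seen in 27.5% and 26.5% of macrophages and in 2.36% and 2.16% of tumor cells, although the macrophages had the lower depth, with medians of 3509 and 2751 UMIs against 12292 and 10966. Cells with at least 1000 UMIs, 708 of 807 and 651 of 771 macrophages, were also thinned to 1000 UMIs. The shares were then 8.33% and 10.8% in macrophages and 0.182% and 0.261% in tumor cells.

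Slc9a7, too, was highest in macrophages among the 7 compared groups, at a lower count, and in library 2 its interval there overlapped that of T cells. It stood at 15.5 CPM (86 UMIs, 12.4 to 19.1) and 18.1 CPM (66 UMIs, 14.0 to 23.0) in macrophages or monocytes. Tumor cells had 1.2 and 1.0 CPM, so macrophages were 12.9-fold (9.57 to 17.3) and 18.0-fold (12.4 to 26.2) higher. Slc9a7 was seen in 11.7% and 11.8% of the macrophages with a Slc9a9 UMI and in 8.03% and 6.70% of the others. The cells with Slc9a9 were also deeper, with medians of 5015 and 4416 UMIs against 2941 and 2201, and the part of depth in this overlap was not tested.

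Dendritic cells, the antigen-presenting cells that prime T cells, stood as high or higher. Slc9a9 was at 84.9 CPM (33 UMIs, 58.4 to 119) in library 1 and 113 CPM (153 UMIs, 95.6 to 132) in library 2, and Slc9a7 at 23.1 CPM (9 UMIs, 10.6 to 43.9) and 44.9 CPM (61 UMIs, 34.4 to 57.7). The macrophage intervals lay below these in library 2 for both genes, and for Slc9a9 also in library 1. In dendritic cells the median of 10 macrophage markers stood at 15.9% and 10.2% of its macrophage level, while Slc9a9 stood at 166% and 155% of its own. The dendritic clusters differed among themselves. Slc9a9 was at 133 and 168 CPM in the cluster led by Clec9a and Xcr1, markers of cross-presenting dendritic cells, with 22 and 137 UMIs. It was at 72.0 CPM (11 UMIs) and 34.9 CPM (14 UMIs) in the cluster led by Napsa and Treml2. The cluster led by Ccr7 and Ccl22, markers of migratory dendritic cells, held 0 and 2 UMIs of Slc9a9 in 12 and 29 cells, with an upper bound of 52.4 CPM and a value of 14.1 CPM (1.70 to 50.8). Slc9a7 stood at 24.1 and 56.5 CPM in the Clec9a cluster, 19.6 and 27.4 in the second and 28.4 and 28.1 in the Ccr7 cluster, on 2 to 46 UMIs.

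Lymphatic endothelial cells, which line the vessels that drain tissue fluid, also had high Slc9a9, on few cells. They held 6 UMIs in 14 cells (51.8 CPM, 19.0 to 113) and 10 UMIs in 12 cells (60.3 CPM, 28.9 to 111). These intervals overlap those of T cells, which had 17.2 and 43.0 CPM. Lymphatic endothelial cells held no UMI of Slc9a7, where 3 UMIs would be 25.9 and 18.1 CPM. Slc9a9 there stood at 101% and 83.1% of its macrophage level and the macrophage markers at 6.83% and 3.80%. Blood endothelial cells had 2.09 CPM (3 UMIs) and 9.63 CPM (8 UMIs) of Slc9a9.

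**Figure D2:**
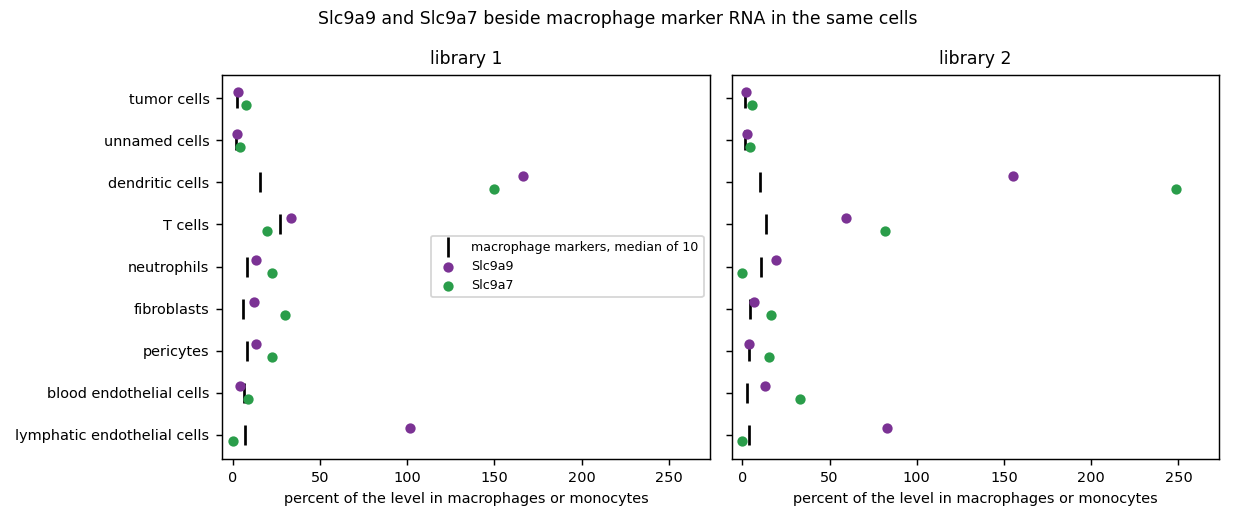
The horizontal axis gives a level as a percent of the level in macrophages or monocytes of the same library, for Slc9a9, Slc9a7 and the median of 10 macrophage markers (black bars), with cell groups in rows and 1 panel per library. Slc9a9 lies far to the right of the markers in dendritic and lymphatic endothelial cells in both libraries and close to them in tumor cells.

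Counted over the 5 lineages, 25 pairs of member and lineage had enough UMIs, lineage and tumor cells together, to be set against tumor cells. A lineage alone could hold few, as with Slc9a7 in neutrophils, on 2 and 0 UMIs. Of the 25 pairs, 5 were at least 2-fold higher in both libraries. By the same rule 8.28% of all pairs of gene and lineage were higher (5394 of 65183), with 8.35% in macrophages, 7.46% in T cells, 4.9% in neutrophils and 11.3% in fibroblasts. The 5 were Slc9a7 in macrophages and Slc9a9 in macrophages, T cells, neutrophils and fibroblasts. None of the 25 was at least 2-fold lower in both libraries, a rule that 6.01% of all pairs met. The order below macrophages was less firm. Slc9a9 in neutrophils stood at 6.92 and 13.9 CPM on 4 and 6 UMIs from 4 and 5 cells. In fibroblasts it stood at 6.23 CPM (16 UMIs, 3.56 to 10.1) and 4.99 CPM (17 UMIs, 2.91 to 7.98). Macrophage markers stood at 5.91% and 4.41% of their macrophage level in fibroblasts, where Slc9a9 stood at 12.2% and 6.87%. Among fibroblasts with no UMI of a macrophage or dendritic marker, 70 and 63 cells with medians of 1458 and 1347 UMIs, no UMI of Slc9a9 or Slc9a7 was found. A count of 0 cells allows a share of cells with a UMI of up to 4.29% and 4.76% (3 cells), and at this depth it does not limit the share of cells that express the genes.

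The genes whose levels over the 7 groups were most like those of Slc9a9 were Cd86, a costimulatory receptor of antigen-presenting cells (r = 0.98 and 0.99), Fyb, a leukocyte adaptor (0.97 and 0.97), and Fermt3, an integrin activator of blood cells (0.98 and 0.96). For Slc9a7 they were Rubcnl (0.94 and 0.95), Aldh1b1 (0.97 and 0.89) and Parp2 (0.90 and 0.89). Each r is Pearson's r of log2 levels over 7 groups of 1 library, the best of 12361 genes, and the groups share a library and its background RNA.

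Among the pairs of member and group with enough cells and UMIs to compare, T cells held the 2 largest library ratios. Slc9a9 was at 17.2 CPM (17 UMIs, 10.0 to 27.5) in library 1 and 43.0 CPM (64 UMIs, 33.1 to 54.9) in library 2, a ratio of 2.50 (1.45 to 4.56). Slc9a7 was at 3.03 CPM (3 UMIs) and 14.8 CPM (22 UMIs), a ratio of 4.88 (1.46 to 25.4). Both passed the rule for a difference between libraries, which is a ratio past 1.5-fold with intervals apart. In T cells 6.18% of all genes passed it. The 10 macrophage markers summed to 1687 and 1381 CPM in T cells and to 6560 and 11020 CPM in macrophages. Their median in T cells was 27.2% and 13.8% of the macrophage level, which itself was higher in library 2. The 9 dendritic markers summed to 252 and 412 CPM in T cells, and dendritic cells themselves were 0.720% and 2.26% of the cells kept. When only T cells with no UMI of a macrophage or dendritic marker were used, 20 and 68 cells remained with 3 and 2 UMIs of Slc9a9, which is too few to give a direction. The Slc9a9 ratio in all T cells also no longer passed when each cell was given the same weight (log2 0.63). The same held when T cells were chosen by a per-cell marker gate (0.70), and both ratios were still past 1.5-fold. It was also lost with cells thinned to 1000 UMIs and with doublets kept and clusters named by markers alone. The Slc9a7 ratio no longer passed with TMM factors (1.87), with that gate (1.70), with doublets kept and clusters named by markers alone (1.06), and in the T cells without those markers, on 0 and 1 UMIs.

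**Figure D3:**
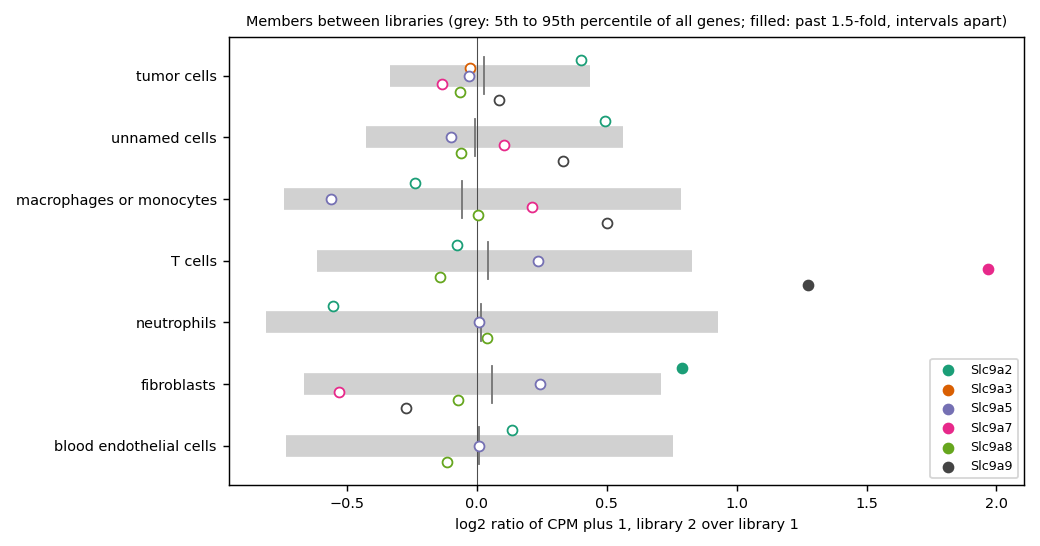
The horizontal axis gives the log2 ratio of CPM plus 1, library 2 over library 1, for each member with at least 20 UMIs in a group, with groups in rows, grey bars from the 5th to the 95th percentile of all genes compared and a dark tick at their median. Filled points passed the rule and open points did not, and the 3 filled points are Slc9a2 in fibroblasts and Slc9a7 and Slc9a9 in T cells.

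Of 32 pairs of member and group that could be compared between the libraries, 3 passed, and by the same rule 7.11% of all pairs did (5726 of 80588). Tumor cells held none of the 3. In tumor cells the median log2 ratio of the 6 members was -0.03 and that of all genes 0.03. In macrophages the largest shift among members was that of Slc9a5, from 70.1 CPM (63.3 to 77.4) to 47.1 CPM (40.3 to 54.7), a ratio of 0.672 (0.559 to 0.806). The intervals lie apart and the ratio of CPM plus 1 stayed just inside the fold, in a group where 14.2% of genes passed. Slc9a9 in macrophages had a ratio of 1.42 (1.20 to 1.69) and Slc9a7 one of 1.17 (0.836 to 1.63).

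Slc9a2, the epithelial surface exchanger, varied more among the tumor and unnamed clusters than Slc9a5 and Slc9a8, the other members with many UMIs there. Its highest level was 4.23 times its lowest in library 1, close to 3.99 for Slc9a5, and 7.37 times in library 2, against 3.58. Slc9a2 stood at 29.8 CPM (2586 UMIs) and 39.7 CPM (2217 UMIs) in tumor cells, a ratio of 1.33 (1.26 to 1.41), and at 38.8 CPM (2678 UMIs) and 55.0 CPM (4924 UMIs) in unnamed cells, a ratio of 1.42 (1.35 to 1.49). Both ratios lay above 1 beyond counting error and inside 1.5-fold. Of the 7 compared groups, unnamed cells stood highest, with no overlap in library 2 and with neutrophils and T cells, on 18 and 26 UMIs, overlapping them in library 1. There were 15 tumor and unnamed clusters that held 100 cells or more from each library, and over them Slc9a2 ran from 18.7 to 79.2 CPM in library 1 and from 20.9 to 154 CPM in library 2. It was higher in library 2 in 13 of the 15 clusters, with intervals apart in clusters 1, 6, 11, 12 and 14 and overlapping in the rest. The clusters are parts of the same 2 libraries and are not repeats of a comparison.

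The top cluster for Slc9a2 in both libraries was an unnamed one (cluster 14) led by Il11, a cytokine of the interleukin-6 family. It held 129 and 513 cells with 79.2 CPM (65.2 to 95.3) and 154 CPM (147 to 162), and 46.5% and 84.2% of its cells had a UMI. Its median depth was 8525 and 20800 UMIs. After thinning, 5.43% and 13.6% of its cells had a UMI. Second came a tumor cluster (cluster 6) rich in Cck and the water and glycerol channel Aqp3, with 46.3 CPM (42.5 to 50.3) and 88.9 CPM (82.4 to 95.8). The dividing tumor cells of cluster 18, led by mitotic genes such as Top2a and Mki67, had 18.7 and 22.8 CPM, while an unnamed cluster also led by mitotic genes, such as Aurkb and Kif11 (cluster 11), had 38.7 and 57.1 CPM. An unnamed cluster led by the interferon-induced genes Iigp1 and Gbp4 (cluster 7), which held 109 and 1127 cells, had 27.4 and 20.9 CPM and was 1 of the 2 clusters that were not higher in library 2. With tumor and unnamed clusters summed, Slc9a2 stood at 33.8 and 49.1 CPM, a ratio of 1.45, and at 1.31 when the clusters of library 2 were weighted to their shares in library 1. Over the 15 clusters the genes most like Slc9a2 were Areg, a ligand of the EGF receptor (r = 0.82 and 0.86), Lbh (0.82 and 0.92) and Slc20a1, a phosphate transporter (0.87 and 0.81), the best of 11240 genes.

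**Figure D4:**
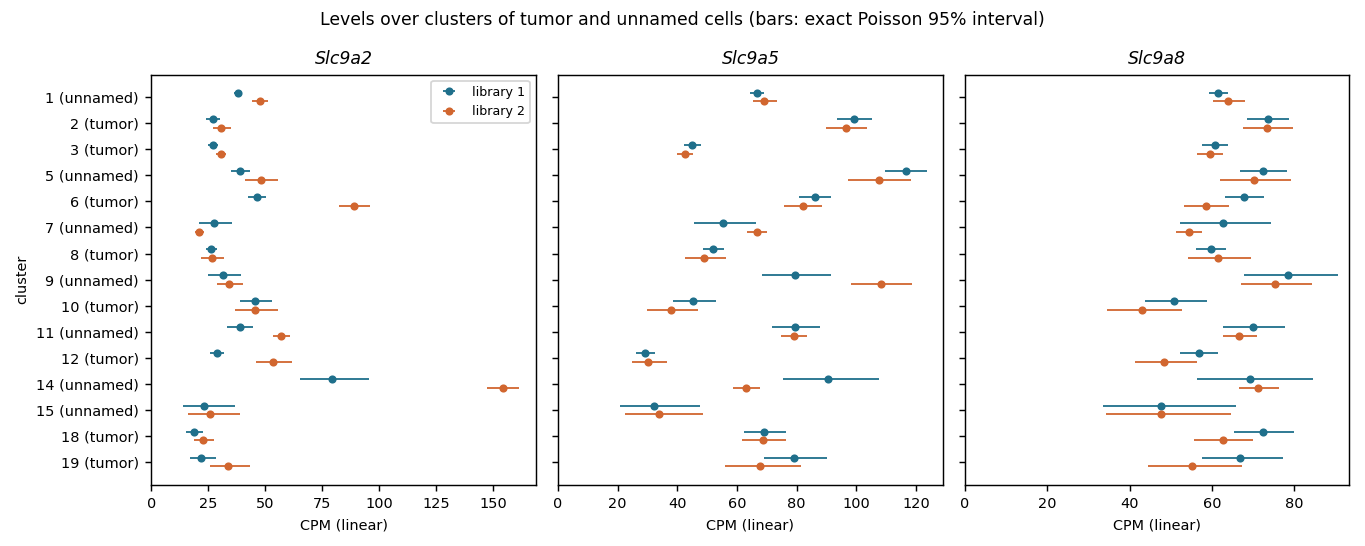
Each panel plots 1 gene over the 15 tumor and unnamed clusters (rows, by number), with CPM on a linear axis from 0 and exact Poisson 95% intervals for library 1 and library 2. Slc9a2 peaks in cluster 14 in both libraries, Slc9a5 is highest in cluster 5 in library 1 and in clusters 5 and 9 in library 2 and lowest in cluster 12 in both, and Slc9a8 stays between 43.0 and 78.5 CPM.

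Fibroblasts were the place where Slc9a2 passed the rule between libraries. It stood at 17.9 CPM (46 UMIs) in library 1 and 31.7 CPM (108 UMIs) in library 2, a ratio of 1.77 (1.24 to 2.55), beside 7.49% of all genes that passed in fibroblasts. These levels are 60.1% and 79.8% of the tumor-cell level, in cells whose epithelial markers stood at 16.3% and 13.2% of theirs. The larger of the 2 fibroblast clusters showed little of the rise, and within the smaller one a rise was not resolved. The larger cluster, led by Cxcl14 and Itm2a, had 17.6 CPM (42 UMIs in 339 cells) and 20.2 CPM (40 UMIs in 312 cells), a log2 ratio of 0.19. The smaller one, led by Eln and Saa3, had 22.6 CPM (4 UMIs in 28 cells, 6.16 to 57.9) in library 1. In library 2 it had 47.5 CPM (68 UMIs in 144 cells, 36.9 to 60.2), and the intervals overlap. Of these 68 UMIs, 3 cells held 41.2%. The smaller cluster made up 28 of 367 and 144 of 456 fibroblasts, and the part of these shares in the rise was not tested. Leaving out the 3 highest fibroblasts of each library gave a log2 ratio of 0.74 with intervals that overlap. Slc9a2 in the other lineages ran from 17.5 to 31.1 CPM and did not differ between libraries beyond counting error.

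Slc9a3, the brush-border exchanger of intestine and kidney, was almost absent from these tumors. It gave 23 UMIs in the 11115 cells of library 1 and 13 in the 10785 cells of library 2, of which tumor cells held 19 and 11, or 0.219 CPM (0.132 to 0.342) and 0.197 CPM (0.0984 to 0.353). Fibroblasts, T cells, neutrophils and dendritic cells held none in either library. A count of 3 UMIs would have been 1.17 and 0.880 CPM in fibroblasts, and 3.03 and 2.01 CPM in T cells. A level like that of tumor cells was therefore not detectable in these lineages at this depth.

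Slc9a5, the neuronal exchanger, was read in every cell group. It stood at 59.7 CPM (58.1 to 61.3) and 58.5 CPM (56.5 to 60.5) in tumor cells and was seen in 51.7% and 48.6% of them. Neutrophils (89.9 and 90.5 CPM) and T cells (80.8 and 95.3 CPM) were the highest of the 7 compared groups, with intervals above those of tumor cells in both libraries. The 3 highest cells held 32.7% and 23.1% of the Slc9a5 UMIs in neutrophils and 21.25% and 15.5% in T cells. Fibroblasts (34.3 and 40.8 CPM) were below tumor cells. With cells thinned to 1000 UMIs the share of cells with a UMI did not show T cells higher, at 2.97% (0.617 to 8.44) and 6.56% (3.87 to 10.3) against 5.96% and 6.65% of tumor cells. Only 80 of 143 and 86 of 162 neutrophils had the 1000 UMIs to be thinned. The share of neutrophils was 7.50% and 9.30%, with intervals that hold the tumor values. Epithelial markers in neutrophils and T cells stood at 31.4% to 36.6% of their tumor level, while Slc9a5 stood at 135% to 163% of its own. Blood endothelial cells had 70.5 and 71.0 CPM. None of the 5 lineages reached 2-fold from tumor cells. In fibroblasts the log2 ratio of Slc9a5 over tumor cells was -0.78 and -0.51, beside a median of -0.34 for all genes.

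Among the clusters Slc9a5 had a wide and repeated spread, from 29.2 to 117 CPM in library 1 and from 30.2 to 108 CPM in library 2, with r = 0.93 between the libraries over 15 clusters that were drawn on both libraries together. It was high in cluster 5, led by Trib3, Chac1 and Asns, targets of the amino acid and stress response factor ATF4, at 117 CPM (109.5 to 124) and 107 CPM (97.2 to 119). Cluster 9, led by mitochondrial transcripts, had 79.3 and 108 CPM, and tumor cluster 2 had 99.3 and 96.5 CPM. The lowest was tumor cluster 12, rich in Pigr, Reg3b and Epcam, at 29.2 CPM (26.1 to 32.6) and 30.2 CPM (24.7 to 36.6). The shallowest cluster, 15, with medians of 1944 and 1671 UMIs, was also low at 32.2 and 33.7 CPM, and the deepest, 11, with medians of 24527 and 27167 UMIs, stood at 79.4 and 79.1 CPM. Slc9a5 levels over the clusters were most like those of Terf2, a telomere protein (r = 0.98 and 0.93), Pds5b, a cohesin cofactor (0.94 and 0.93), and Brd9, a chromatin remodeler subunit (0.93 and 0.93). Over the 7 groups they were Brd8, Tnrc6b and Fip1l1 (r of 0.96 to 0.98).

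Slc9a8, the Golgi exchanger, was more even than Slc9a2 and Slc9a5. Tumor cells had 63.1 CPM (61.5 to 64.8) and 60.3 CPM (58.3 to 62.4), and unnamed cells 63.9 and 61.3 CPM. Neutrophils, the highest of the 7 groups, had 81.3 CPM (59.7 to 108) and 83.5 CPM (58.5 to 116), and fibroblasts, the lowest, had 46.0 CPM (38.0 to 55.0) and 43.7 CPM (37.0 to 51.3). Each group overlapped its neighbor in the order in both libraries, and the fibroblast intervals lay below those of tumor cells. The log2 ratio of Slc9a8 in fibroblasts over tumor cells was -0.45 and -0.46, beside a median of -0.34 for all genes. Log2 ratios between libraries ran from -0.14 in T cells to 0.04 in neutrophils. Over the 15 clusters the highest level was 1.64 and 1.75 times the lowest, against 4.23 and 7.37 for Slc9a2 and 3.99 and 3.58 for Slc9a5. Its nearest genes over the 7 groups were Pitpnm1, Slf2 and Osgin1, with r of 0.96 to 0.98.

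Genes that work beside the exchangers were counted in the same way. Of 13 listed partners and scaffolds, 12 were compared in tumor cells between the libraries and 1 passed, where 3.78% of all genes did. This was Tesc, a calcium-binding partner of surface exchangers, which stood at 91.7 CPM in library 1 and 42.9 CPM in library 2 (log2 ratio -1.08). In fibroblasts 1 of 11 passed, Slc9a3r1, a scaffold that binds NHE3 and ezrin, at 63.9 and 119 CPM (0.88), where 7.49% of all genes did. Of 29 genes of acid and bicarbonate transport at the surface, 23 were compared in tumor cells, with Car12, a surface carbonic anhydrase, higher (1.61 and 3.42 CPM) and Slc4a10, a bicarbonate transporter, lower (4.38 and 1.34 CPM), and their median log2 ratio was 0.04 beside 0.03 for all genes. In macrophages 6 of 20 compared genes of this list were higher in library 2 and 4 lower, where 14.2% of all genes passed. Car4 stood at 2.16 and 47.7 CPM there and Slc4a3 at 83.6 and 41.4 CPM. T cells had 2 of 17 higher and neutrophils 2 of 14, beside 6.18% and 6.08% of all genes. Fibroblasts had 1 higher and 1 lower of 17, beside 7.49%, and blood endothelial cells 1 lower of 15, beside 5.54%. Of 19 macropinocytosis genes, among them Rac1, Cdc42 and Pak1, which drive membrane ruffles, none passed in tumor cells or fibroblasts. In other groups Sdc1, a surface proteoglycan, was lower in library 2 in macrophages (1034 and 566 CPM), T cells (1073 and 712 CPM), neutrophils (1339 and 796 CPM) and blood endothelial cells (696 and 384 CPM), Cdc42 was higher in macrophages (69.7 and 107 CPM) and Snx9 lower in neutrophils (287 and 158 CPM). These are 2, 1, 2 and 1 of 19 genes in macrophages, T cells, neutrophils and blood endothelial cells, where 14.2%, 6.18%, 6.08% and 5.54% of all genes passed. Sdc1 stood at 1869 and 1614 CPM in tumor cells, and the epithelial markers in macrophages stood at 29.6% and 20.2% of their tumor level, whose part in the Sdc1 difference was not tested. Of 30 compared genes of ion and proton handling in endosomes and the Golgi, none passed in tumor cells, and Clcn5, an endosomal chloride-proton exchanger, was the 1 of 28 that passed in fibroblasts (57.6 and 88.9 CPM, 0.62), a share below the 7.49% of all genes. Set against tumor cells, macrophages had 4 of 29 genes of that endosomal list at least 2-fold higher in both libraries and none lower, with 8.35% of all genes higher in this lineage. They were Ostm1, a partner of a lysosomal chloride transporter, the ion channel Tpcn2, and the proton pump subunits Tcirg1 and Atp6v0d2, and the list's median log2 ratio was 0.38 beside -0.09 for all genes. Between the libraries, macrophages had 3 of these 29 genes higher in library 2, the pump genes Atp6ap2, Atp6v1d and Atp6v0d2, and Clcn3, an endosomal chloride-proton exchanger, lower. These 4 of 29 are a share near the 14.2% of all genes that passed in macrophages. Atp6v0d2 stood at 8.09 and 26.0 CPM (log2 ratio 1.57).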

How the data were processed

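The authors' deposited matrix holds raw counts, UMIs per gene and cell barcode, for both samples together, which, per the submitters' processing notes, Cell Ranger 8.0.0 made on the mm10 build. Single-plex fixed RNA profiling libraries were made, per the labels' protocols. Cells with at least 200 genes, 500 UMIs and under 20% mitochondrial UMIs were kept. The cells with the highest Scrublet scores, 1217 and 1137, were removed at 0.8% per 1000 cells. Clustering used 3000 variable genes, 50 components, 15 neighbors and Leiden resolution 1 (scanpy 1.11.5, leidenalg 0.10.2, igraph 0.11.9). A cluster was named when at least 3 markers of a class reached 20 CPM and 2-fold over all other cells. For tumor cells the fold could also be taken over the other named classes. A shallow cluster also needed 1 of its own markers among its top 10 genes by fold. A cluster with more top markers of another class than of its own stayed unnamed. The scoring was set after the clusters were seen.

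UMIs were summed per group and library and scaled to CPM of the group total. Log2 ratios use CPM plus 1. Against tumor cells a gene needed 2-fold the same way in both libraries. It also needed 20 UMIs in the lineage and tumor cells together, in each library. Between libraries it needed 20 UMIs, 1.5-fold and Poisson intervals apart. The counting rule was tested on simulated data. Shares of cells were also taken after thinning to 1000 UMIs, among cells with at least 1000 UMIs. The members, the gene lists and the markers were chosen with earlier results of these data known. All 6 members are named; a list gene is named where it is among the 3 highest or lowest ratios in tumor cells or fibroblasts, or is among the few that passed, and the latter were picked after their values were seen. Nearest genes are the 3 with the highest r in the lower of both libraries. Alternatives were TMM factors (edgeR 4.0.16), median-of-ratios factors (DESeq2 1.42.0), per-cell shares, other values added, filters, doublets, resolutions, a marker gate, pooled tumor cells, subtracted tumor RNA and the highest cells left out. Promoter windows came from RefSeq (GRCm38.p6) and matched 5 of 6 members by symbol. Python 3.11.15, numpy 2.4.6, scipy 1.17.1, pandas 2.3.3 and R 4.3.3 were used.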

Additional observations from a re-analysis of the deposited data

How the results depend on the processing

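No paired analysis was possible because each treatment has 1 sample and no label ties a library to one. The 5 pairs of member and lineage at least 2-fold above tumor cells became 3 with 10 CPM added and 2 with cells thinned to 1000 UMIs, where fewer UMIs are left to compare. They stayed within 1.5 times in the other 15 of 17 settings. The 0 pairs at least 2-fold lower became 1 in thinned cells, without the 3 highest cells and with tumor-cell RNA subtracted, 2 with per-cell shares and 3 with the marker gate; the cause was not tested. The 3 pairs past 1.5-fold between libraries became 1 in thinned cells and stayed within 1.5 times in the other 16. Slc9a9 and Slc9a7 in macrophages passed in all 17 settings, with log2 ratios of 2.41 to 5.47 and 1.18 to 4.18. Slc9a9 in neutrophils was lost with 10 CPM added and without the 3 highest cells (0.21 and 1.23), and in fibroblasts with 10 CPM added and with per-cell shares. Slc9a2 in fibroblasts passed in 12 of 18 settings (0.19 to 1.05). In T cells Slc9a7 passed in 11 of 15 (0.93 to 3.57), lost among others with TMM factors at 1.87, and Slc9a9 in 12 of 17, and Slc9a9 had -1.90 in T cells without a UMI of the macrophage or dendritic markers, on 3 and 2 UMIs, too few to give a direction. That setting, the larger fibroblast cluster alone, weighted cluster shares and naming by markers alone without doublet removal were chosen after the data were seen. With doublets kept and the naming rule unchanged, T cells had no named cluster and gave no values.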

Other observations

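Islet cells, 16 and 11 in number, were in no comparison. They held 7 and 18 UMIs of Slc9a5 (30.1 and 128 CPM), 21 and 7 of Slc9a8 (90.2 and 49.6 CPM) and 4 and 0 of Slc9a7, all 4 from 1 cell in library 1. Pericytes, 63 and 56 cells, held 11 and 17 UMIs of Slc9a5 (37.9 and 47.4 CPM), 18 and 21 of Slc9a8 (62.1 and 58.6 CPM) and 2 and 1 of Slc9a9. A further unnamed cluster led by Mmp10 and Cck (cluster 16) held 46 cells in library 1 and 561 in library 2, too few in library 1 for the cluster comparison. Slc9a2 stood there at 67.7 CPM (85 UMIs, 54.0 to 83.7) and 40.4 CPM (612 UMIs, 37.3 to 43.7), lower in library 2. This is the opposite direction to 13 of the 15 larger clusters, many of which had intervals that overlap.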
